A study of Mus musculus with 8 samples.

Results

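Matricellular proteins are secreted proteins that sit in the extracellular matrix and bind matrix, growth factors and cell surface receptors rather than forming its main fibres. The genes described here are the 5 thrombospondins (Thbs1, Thbs2, Thbs3, Thbs4 and Comp) and 5 other matricellular genes (Postn, Spp1, Tnc, Sparc and Sparcl1). They were chosen by symbol and are 10 of the 23356 genes in the deposited table. All 10 had a mean of at least 1 FPKM (fragment counts adjusted for gene length and library size) over the 8 libraries and were among the 12530 genes tested.

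Whole sciatic nerve of mice aged 30 days was profiled by RNA sequencing of poly A selected RNA, 2 libraries per genotype. The strain of all mice was F1 C57BL/6;FVB/N. One group carried both alleles, HA-NRG1 type III/+:Q215X/+, and is called the double here. Another, HA-NRG1 type III/+, carried only the transgene, which encodes the growth factor neuregulin 1 in its type III form. Another, Q215X/+, was heterozygous for the Q215X mutation. All were set against wild type (WT). The series title names the question, whether neuregulin 1 type III lessens disease in a mouse model of congenital hypomyelination. The sources used here name no promoter for the transgene.

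Thrombospondins 1 and 2 form trimers and carry the type 1 repeats that bind the receptor CD36, and thrombospondin 1 can activate latent TGF-beta. Thrombospondins 3, 4 and 5 (the last encoded by Comp) form pentamers and lack those repeats. In peripheral nerve the matrix is laid down by Schwann cells and by the fibroblasts and perineurial cells around them, and tenascin-C, osteopontin (Spp1) and periostin are known there from development and injury.

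Nrg1, the gene of the transgene's product, was low everywhere, at 0.312 to 0.498 FPKM in the 4 libraries with the transgene, against 0.164 to 0.326 FPKM in the 4 without, and it is not known if transgene reads are counted in it. Library totals were 443733 to 530901 FPKM, of which the 10 genes made up 1.24% to 1.38%. Each column name ends in 0 or 1, called set 0 and set 1 here. The first principal component of all tested genes (24.9% of the variance) parted the sets. Xist and Ddx3y read both double libraries as female, HA-NRG1 type III/+ as a male in set 0 and a female in set 1, both Q215X/+ libraries as male and both WT libraries as female. Sex and genotype therefore cannot be told apart in the double against Q215X/+ and in Q215X/+ against WT, while the double against WT compares libraries of the same sex. In whole nerve, fewer cells of a type and less RNA per cell cannot be told apart. No label states that the libraries of a group are different animals. Those of HA-NRG1 type III/+ read as different sexes, so they are not from the same animal. The p-values reflect the spread between these libraries alone, which may be technical in the other groups.

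The 10 genes spanned a wide range of levels. Sparc, which encodes a collagen-binding glycoprotein, was the most abundant at a mean of 5240 FPKM over the 8 libraries and ranked 5th of all genes in the table. Spp1 followed at 478 FPKM and Sparcl1 at 243 FPKM, and these neighbours overlapped, with Spp1 higher in 7 of 8 libraries. Postn at 150 FPKM and Thbs4 at 145 FPKM also overlapped (Postn higher in 5 of 8). Thbs1 at 33.6 FPKM and Thbs2 at 32.3 FPKM could not be ordered, each being the higher in 4 libraries. Thbs3, at 16.2 FPKM, was below Thbs2 in all 8 libraries. Comp and Tnc were lowest, both at 2.95 FPKM.

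**Figure D1:**
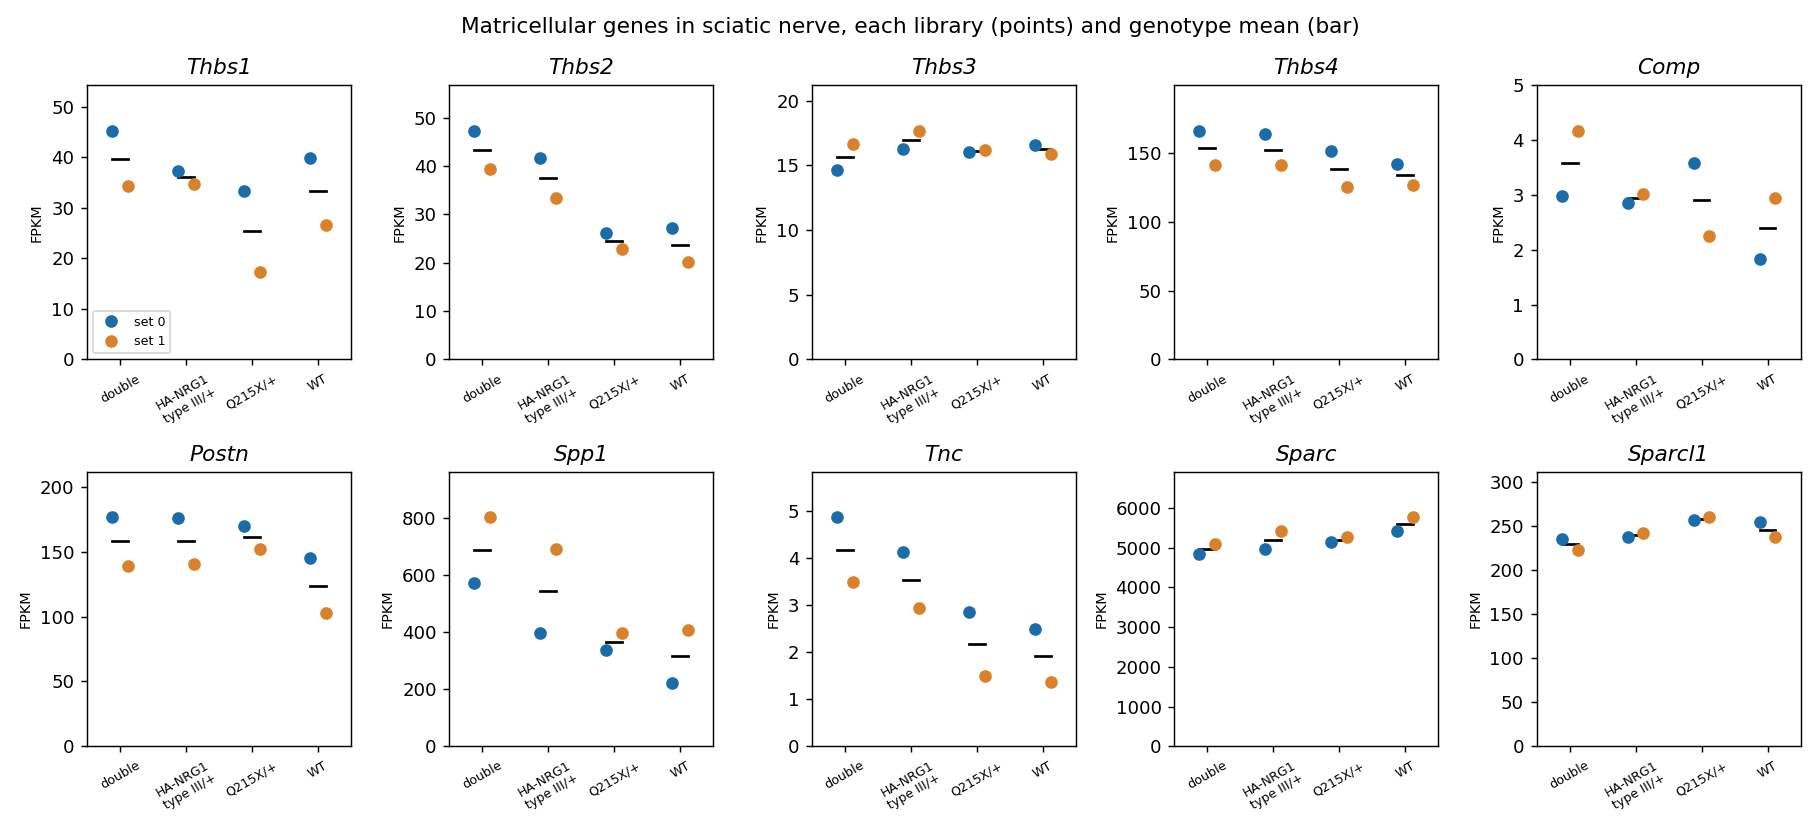
FPKM of the 10 matricellular genes in each library, 1 panel per gene, with points for set 0 and set 1 and a bar at the mean of each genotype. Thbs2 and Tnc lie higher in the double and in HA-NRG1 type III/+ than in Q215X/+ and WT in every library (33.4 to 47.3 against 20.2 to 27.2 FPKM for Thbs2), while Thbs3 is level at 14.6 to 17.7 FPKM.

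Thbs2, Tnc and Spp1 were the genes that differed most between nerves with and without the transgene, while 0 of the 10 genes passed the test for the mutation. In limma on log2(FPKM + 1) with 4 genotype means, 0 of 10 genes passed a Benjamini-Hochberg adjusted p of 0.05 in any comparison. Once the set was added as a replicate block, Thbs2 and Tnc rose in HA-NRG1 type III/+ nerves relative to WT and in double nerves relative to Q215X/+. Spp1 joined them in the double against WT and when the transgene was taken over both backgrounds. Every call among the 10 genes thus depends on pairing the libraries by set, a pairing taken from the data.

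Counts of all tested genes give the scale for these calls. In HA-NRG1 type III/+ against WT, limma without the block called 0.0638% of the 12530 tested genes and 0 of the 10 (1 at an unadjusted p under 0.05, as were 6.9% of tested genes). Adding the block it called 1.05% as higher, among them 2 of the 10. Between the double and Q215X/+ it called 0.0399% of tested genes without the block and 0 of the 10 (2 at such an unadjusted p, against 6.58% of tested genes), and with it 0.854% as higher, among them 2 of the 10. For the double and WT the share was 0.112% without the block, with 0 of the 10 (3 at such a p, against 7.29%), and 1.15% were higher with it, among them 3 of the 10. With the transgene taken over both backgrounds, 4 libraries against 4, 0.99% were called without the block and 0 of the 10 (3 at such a p, against 11.2%). With the block 3.42% were higher, among them 3 of the 10, and 3.69% were lower, among them 0 of the 10.

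The mutation gave no call among the 10 genes. In Q215X/+ against WT limma called 0.00798% of tested genes with and without the block and 0 of the 10, where unadjusted p-values under 0.05 numbered 0 without the block (2.04% of tested genes) and 2 with it (Thbs1 and Postn; 7.41%). Between the double and HA-NRG1 type III/+ it called 0% of tested genes in either fit, and unadjusted p-values under 0.05 numbered 0 among the 10 without the block (1.28% of tested genes) and 1 with it (Thbs2; 4.53%). The interaction, the transgene effect in the mutant minus that in WT, was called for 0.00798% of tested genes in either fit and 0 of the 10, where such p-values numbered 0 without the block (1.11%) and 1 with it (Postn; 4.78%).

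The direction within sets can be counted without a model. Each set holds a pair of libraries with and without the transgene on either background, which gives 4 pairs in all. Thbs2, Tnc, Spp1 and Thbs4 were higher with the transgene in 4 of 4 pairs, so 4 of the 10 genes did what 14.5% of tested genes did. Sparc alone was lower in 4 of 4 pairs, as were 17.5% of tested genes. For the mutation, Tnc was higher in 4 of 4 pairs (6% of tested genes) and Sparc lower in 4 of 4 (8.22%). Over all 8 libraries, Thbs2 and Tnc did not overlap between the 4 libraries with and the 4 without the transgene and were higher, as were 4.88% of tested genes, and 0 of the 10 were lower without overlap (5.2%).

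**Figure D2:**
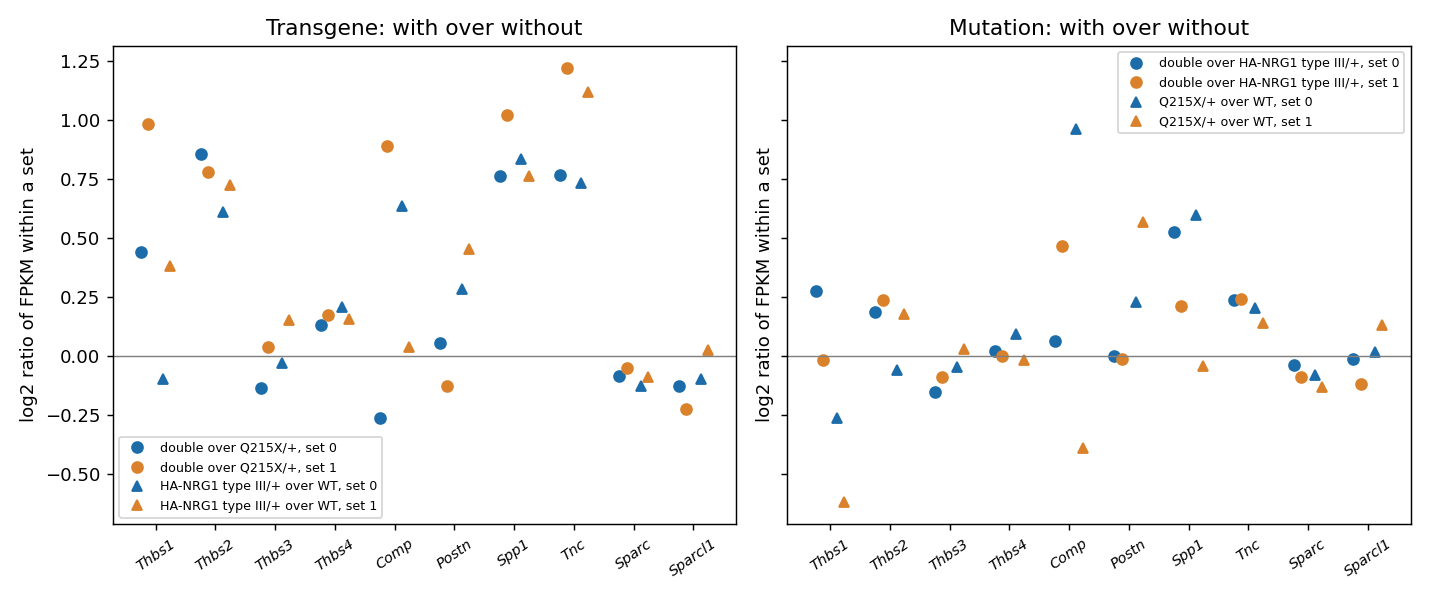
Log2 ratio of FPKM within a set for each gene, with the transgene effect at left (double over Q215X/+ and HA-NRG1 type III/+ over WT) and the mutation effect at right (double over HA-NRG1 type III/+ and Q215X/+ over WT), 1 point per set and background. All 4 transgene ratios of Thbs2, Tnc and Spp1 lie above 0, while those of Thbs3, Comp, Postn and Sparcl1 fall on both sides.

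Thbs2, Tnc and Spp1 also had promoters of RefSeq (GRCm38.p6), and these are printed because the 3 genes were called over both backgrounds; 7 of the 10 genes matched that table. Each sequence holds the 250 bases before the annotated start, 5′ to 3′ on the strand of the gene. They lie at chr17:14694263-14694512 on the minus strand for Thbs2, chr4:64047016-64047265 on the minus strand for Tnc and chr5:104434861-104435110 on the plus strand for Spp1. Capitals mark matches to the motifs searched on both strands.
Thbs2: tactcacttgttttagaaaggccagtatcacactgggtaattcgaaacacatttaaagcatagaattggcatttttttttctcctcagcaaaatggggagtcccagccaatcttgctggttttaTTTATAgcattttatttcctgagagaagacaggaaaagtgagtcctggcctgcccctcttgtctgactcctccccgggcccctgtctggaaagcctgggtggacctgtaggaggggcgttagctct
Tnc: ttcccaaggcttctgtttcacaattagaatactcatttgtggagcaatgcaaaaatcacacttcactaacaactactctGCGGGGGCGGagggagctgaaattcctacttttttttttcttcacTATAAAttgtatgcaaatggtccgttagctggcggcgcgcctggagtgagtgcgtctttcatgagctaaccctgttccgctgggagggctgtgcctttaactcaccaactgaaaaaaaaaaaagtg
Spp1: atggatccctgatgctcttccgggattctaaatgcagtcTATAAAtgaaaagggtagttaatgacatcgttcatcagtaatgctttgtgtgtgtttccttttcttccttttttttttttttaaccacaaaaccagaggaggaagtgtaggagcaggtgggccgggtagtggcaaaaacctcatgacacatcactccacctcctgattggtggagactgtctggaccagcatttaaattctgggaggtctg

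The letters TATAAA (the TATA box) occurred in all 3 of these windows, against 12.4% of the 32851 promoters of the same length. They began 126 bases before the start in Thbs2 (on the opposite strand) and Tnc, and 211 bases before it in Spp1. The Tnc window also held an EGR match (GCGNGGGCG, in 4.7% of promoters) 171 bases before the start. It overlapped a GC box (GGGCGG, in 32.7%). The 3 windows held no match to AP-1 (TGANTCA, in 6.75%), TEAD (GGAATG, in 12.6%), ETS (CCGGAAGT, in 2.88%) or SMAD (GTCTAGAC, in 0.167%). These matches describe letters, not bound sites. TATAAA was absent from the windows of Thbs3, Thbs4, Postn and Sparc. For Postn and Sparc the start used (54359267 and 55420080) is not that of the gene positions given below (54361109 and 55423183). For Thbs2 and Spp1 the start used (14694262 and 104435111) also differs from those positions (14694235 and 104435118). What these windows hold thus depends on the annotation.

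Thbs2 lies on chromosome 17 (14665500 to 14694235, minus strand, GRCm38) and encodes thrombospondin 2, a trimer known for limiting blood vessel growth and for shaping collagen fibrils. It stood at 47.3 and 39.3 FPKM in sets 0 and 1 of the double, 41.6 and 33.4 FPKM in HA-NRG1 type III/+, 26.2 and 22.9 FPKM in Q215X/+, and 27.2 and 20.2 FPKM in WT. Every library with the transgene was above every library without it, and within each genotype set 0 was the higher. Genotype means were 43.3 ± 5.66 FPKM in the double, 37.5 ± 5.80 FPKM in HA-NRG1 type III/+, 24.5 ± 2.32 FPKM in Q215X/+ and 23.7 ± 4.95 FPKM in WT (SD, n = 2 each).

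Within sets, the transgene ratios of Thbs2 were close to each other. The ratio of the double to Q215X/+ was 1.81 in set 0 and 1.72 in set 1, and that of HA-NRG1 type III/+ to WT was 1.53 and 1.65. The log2 difference, on the log2(FPKM + 1) scale, was 0.79 (SE 0.07) in the double against Q215X/+ with the block (limma adjusted p = 0.0130, and 0.325 without the block). It was 0.64 (SE 0.07) in HA-NRG1 type III/+ against WT (adjusted p = 0.0175, and 0.423 without the block). The interaction, 0.15 (SE 0.09), did not pass the test with the block (adjusted p = 0.965), so a difference between the backgrounds was not shown.

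Taken over both backgrounds, Thbs2 averaged 40.4 FPKM with the transgene and 24.1 FPKM without, a log2 difference of 0.72 (SE 0.05; adjusted p = 0.00244 with the block and 0.0761 without). This call held in all 8 fits that left out 1 library (adjusted p = 0.00652 to 0.0320) and when a sex term joined the block (0.0200). Only HA-NRG1 type III/+ held both sexes, so the sex term rests on its libraries. With block and sex, the log2 difference over both backgrounds (0.72) equals that without the set 1 library of HA-NRG1 type III/+. These checks are therefore not separate, and the same holds for Tnc (0.65) and Spp1 (0.77). Relative to WT of the same sex, Thbs2 in the double rose by 0.85 (SE 0.07; adjusted p = 0.00677 with the block, 0.261 without, and 0.0287 with the sex term). That call ended without the WT library of set 1 (adjusted p = 0.0555) and without the double library of set 0 (0.133) or set 1 (0.145).

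Both comparisons of the transgene on a single background were less firm for Thbs2. The call in the double against Q215X/+ ended without the double library of set 0 (adjusted p = 0.199) or set 1 (0.189) and with the sex term (0.528). In HA-NRG1 type III/+ against WT it held only without the Q215X/+ library of set 0 (0.0243) or set 1 (0.0239). It ended without the set 0 (0.141) or set 1 (0.136) library of HA-NRG1 type III/+, the WT library of set 0 (0.0764) or set 1 (0.141), and the double library of set 0 (0.0836) or set 1 (0.0839). With the sex term it was 0.135. The mutation left Thbs2 at log2 differences of 0.06 (SE 0.07) in Q215X/+ against WT and 0.21 (SE 0.07) in the double against HA-NRG1 type III/+, neither of which passed the test (limma with the block, adjusted p = 0.888 and 0.979).

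Thbs1 (chromosome 2, 118111876 to 118127133, plus strand), which encodes the other trimer-forming thrombospondin, gave no call. It stood at 45.3 and 34.3 FPKM in sets 0 and 1 of the double, 37.4 and 34.7 FPKM in HA-NRG1 type III/+, 33.3 and 17.3 FPKM in Q215X/+, and 40.0 and 26.6 FPKM in WT. The lowest value by far was the Q215X/+ library of set 1, and libraries with and without the transgene overlapped. The double lay above Q215X/+ without overlap, as did 14.6% of tested genes. The log2 difference of 0.69 (SE 0.17) did not pass limma's test with the block (adjusted p = 0.126). With the block, leaving out the set 1 library of Q215X/+ gave 0.41, while leaving out its set 0 library gave 0.96. A term for sex gave 0.79 without the block and 0.17 with it. That same library held 1085 FPKM of summed skeletal muscle markers, against 6.18 to 84.6 FPKM in the other 7, and the part of muscle or of sex in the Thbs1 value was not tested. Over both backgrounds Thbs1 was 0.41 (SE 0.12) higher with the transgene (adjusted p = 0.105 with the block), and this passed (0.0444) in the 1 fit that left out the Q215X/+ library of set 0.

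The ratio of Thbs2 to Thbs1 within a library was 1.04 and 1.15 in the double, 1.11 and 0.962 in HA-NRG1 type III/+, 0.785 and 1.32 in Q215X/+, and 0.681 and 0.760 in WT (sets 0 and 1). The Q215X/+ library of set 1 had the highest ratio and the lowest Thbs1.

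Thbs4 (chromosome 13, 92751590 to 92794818, minus strand), which encodes a pentamer known from tendon and muscle, made up most of the thrombospondin signal. It stood at 166 and 141 FPKM in sets 0 and 1 of the double, 164 and 141 FPKM in HA-NRG1 type III/+, 152 and 125 FPKM in Q215X/+, and 142 and 126 FPKM in WT. Set 0 was the higher in every genotype, and by set the libraries with the transgene were above those without it. The log2 difference over both backgrounds was small, 0.17 (SE 0.04), and missed the threshold with the block (adjusted p = 0.0569). It passed where libraries were scaled to equal totals without short RNA (0.0245 with the block).

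Thbs3 (chromosome 3, 89215180 to 89226837, plus strand), another pentamer-forming thrombospondin, was the most even of the family. It ranged from 14.6 to 17.7 FPKM in the 4 libraries with the transgene and from 15.9 to 16.6 FPKM in the 4 without. Its log2 difference over both backgrounds was 0.01 (SE 0.05), and limma with the block gave an adjusted p = 0.952. The exons of Thbs3 overlap those of Mtx1 on the opposite strand over 318 bases, 6.59% of its exonic length, and whether counting used strand is not given.

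Comp (chromosome 8, 70373558 to 70382066, plus strand), which encodes cartilage oligomeric matrix protein, was near the limit for testing. It stood at 2.98 and 4.17 FPKM in sets 0 and 1 of the double, 2.85 and 3.02 FPKM in HA-NRG1 type III/+, 3.58 and 2.25 FPKM in Q215X/+, and 1.84 and 2.94 FPKM in WT. Within each set the double was above HA-NRG1 type III/+, which was above WT, while Q215X/+ was the highest in set 0 and the lowest in set 1. Libraries with and without the transgene overlapped. The double lay just above WT without overlap, as did 14.4% of tested genes, with a log2 difference of 0.44 (SE 0.23) that did not pass the test (limma with the block, adjusted p = 0.379). The log2 difference over both backgrounds was 0.23 (SE 0.16) and did not pass the test (limma with the block, adjusted p = 0.439). Of the 10 tendon and cartilage markers, Acan was under 0.1 FPKM in all libraries and 3 reached the level for testing. The summed level of the 10 was 52.5 to 63.2 FPKM with the transgene and 40.8 to 57.5 FPKM without. Among them Col2a1, a cartilage collagen gene, rose over both backgrounds (log2 0.52, SE 0.09; limma with the block, adjusted p = 0.0302, and 0.0269 with the sex term) and in HA-NRG1 type III/+ against WT (0.80, SE 0.13; adjusted p = 0.0474, and 0.177 with the sex term). These calls held in 1 and 0 of 8 fits that left out 1 library.

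The 5 thrombospondins together summed to 276 and 235 FPKM in sets 0 and 1 of the double, 262 and 230 FPKM in HA-NRG1 type III/+, 231 and 184 FPKM in Q215X/+, and 228 and 192 FPKM in WT. Thbs4 contributed 59.9% to 68.1% of each sum. The share of Thbs2 was 17.1% and 16.7% in the double, 15.9% and 14.5% in HA-NRG1 type III/+, 11.3% and 12.5% in Q215X/+, and 12.0% and 10.5% in WT. The share was thus larger in every library with the transgene than in any without it, as was the level of Thbs2 itself.

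**Figure D3:**
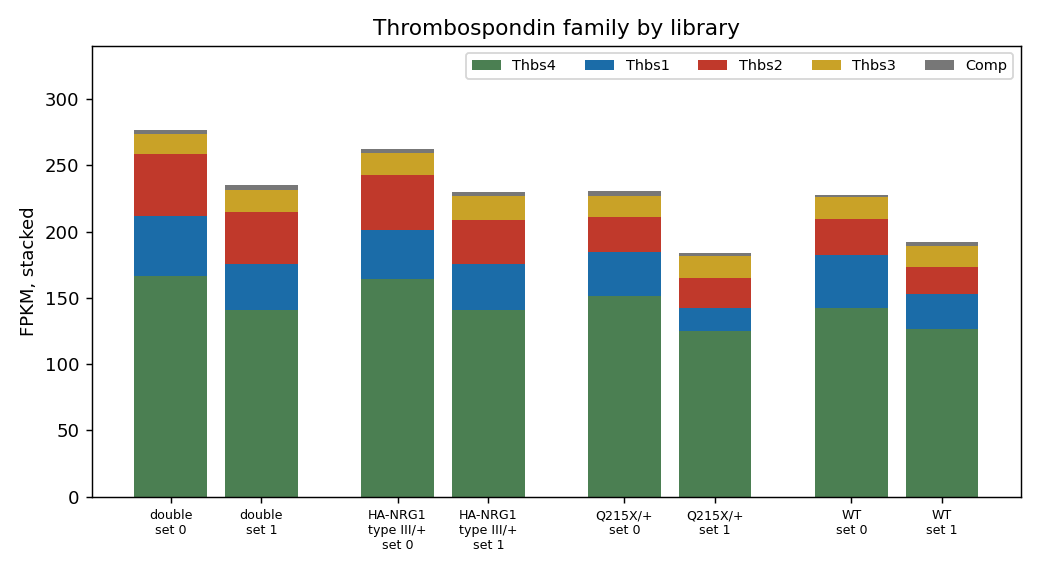
FPKM of the 5 thrombospondin genes stacked for each library, ordered as double, HA-NRG1 type III/+, Q215X/+ and WT with sets 0 and 1 side by side. Thbs4 is the largest part of every bar (59.9% to 68.1%), and the Thbs2 part is 14.5% to 17.1% in the libraries with the transgene, against 10.5% to 12.5% in those without.

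Tnc (chromosome 4, 63959785 to 64047015, minus strand) encodes tenascin-C, a hexameric glycoprotein of developing and injured tissue that can oppose cell adhesion to fibronectin. It stood at 4.86 and 3.48 FPKM in sets 0 and 1 of the double, 4.12 and 2.94 FPKM in HA-NRG1 type III/+, 2.86 and 1.49 FPKM in Q215X/+, and 2.48 and 1.36 FPKM in WT. The lowest library with the transgene was above the highest without it, by a narrow margin across sets and a wide one within them. Genotype means were 4.17 ± 0.975 FPKM in the double, 3.53 ± 0.832 FPKM in HA-NRG1 type III/+, 2.18 ± 0.966 FPKM in Q215X/+ and 1.92 ± 0.796 FPKM in WT (SD, n = 2 each).

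The FPKM ratio of Tnc in the double to Q215X/+ was 1.70 in set 0 and 2.33 in set 1, and that of HA-NRG1 type III/+ to WT was 1.66 and 2.17. At such low levels the log2(FPKM + 1) scale understates the change. On that scale Tnc rose by 0.72 (SE 0.09) in the double against Q215X/+ with the block (limma adjusted p = 0.0306, and 0.738 without). In HA-NRG1 type III/+ against WT it rose by 0.65 (SE 0.09; adjusted p = 0.0354 with the block and 0.775 without). Relative to WT it rose in the double by 0.84 (SE 0.09; adjusted p = 0.0175 with the block, 0.553 without, and 0.0414 with the sex term).

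Over both backgrounds Tnc averaged 3.85 FPKM with the transgene and 2.05 FPKM without, a log2 difference of 0.69 (SE 0.07; adjusted p = 0.00531 with the block and 0.248 without). This call held in all 8 fits that left out 1 library (0.0142 to 0.0458) and with the sex term (0.0337). The call in the double against Q215X/+ ended in all 8 such fits (0.0622 to 0.308) and with the sex term (0.744). In HA-NRG1 type III/+ against WT it held only without either Q215X/+ library (0.0436 and 0.0422), ended in the other 6 fits (0.105 to 0.213) and was 0.173 with the sex term. The call in the double against WT ended without the double library of set 0 (0.203) or set 1 (0.206) and without the WT library of set 0 (0.106) or set 1 (0.148). Tnc was also the only one of the 10 genes with a higher level with the mutation in all 4 pairs, at ratios of 1.18 and 1.18 for the double over HA-NRG1 type III/+ and 1.15 and 1.10 for Q215X/+ over WT. These did not pass the test (limma with the block, adjusted p = 1 and 0.823).

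Spp1 (chromosome 5, 104435118 to 104441050, plus strand) encodes osteopontin, a secreted ligand of integrins and CD44 that macrophages and Schwann cells can make. It stood at 570 and 802 FPKM in sets 0 and 1 of the double, 396 and 692 FPKM in HA-NRG1 type III/+, 336 and 396 FPKM in Q215X/+, and 222 and 407 FPKM in WT. Unlike Thbs2 and Tnc, Spp1 was higher in set 1 of every genotype. Across sets the groups touched, since HA-NRG1 type III/+ of set 0 (396 FPKM) lay below WT of set 1 (407 FPKM), but within each set both libraries with the transgene were above both without it.

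Genotype means of Spp1 were 686 ± 164 FPKM in the double, 544 ± 209 FPKM in HA-NRG1 type III/+, 366 ± 42.2 FPKM in Q215X/+ and 315 ± 131 FPKM in WT (SD, n = 2 each). The ratio of mean FPKM in the double over WT was 2.18 for Spp1, close to the 2.17 for Tnc. Spp1 in the double stood 2.57 times as high as in WT in set 0 and 1.97 times in set 1. On the log2(FPKM + 1) scale this was a difference of 1.17 (SE 0.16), the largest among the 10 genes in any comparison (limma adjusted p = 0.0270 with the block, 0.512 without, and 0.0614 with the sex term). That call held only without the Q215X/+ library of set 0 (0.0262) or set 1 (0.0260) and ended in the other 6 fits that left out 1 library (0.0631 to 0.287).

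The ratio of Spp1 in the double to Q215X/+ was 1.70 in set 0 and 2.03 in set 1, and that of HA-NRG1 type III/+ to WT was 1.78 and 1.70. The log2 differences of 0.89 (SE 0.16) and 0.80 (SE 0.16) just missed the threshold with the block (adjusted p = 0.0567 and 0.0661). Over both backgrounds Spp1 averaged 615 FPKM with the transgene and 341 FPKM without, a log2 difference of 0.84 (SE 0.11; adjusted p = 0.0110 with the block and 0.288 without). This call ended without the double library of set 0 (0.0839) or set 1 (0.0694), without the set 1 library of HA-NRG1 type III/+ (0.0586) and with the sex term (0.0584). The annotated gene Gm42793 overlaps 309 exonic bases of Spp1 (18.8%) on the same strand and is no row of its own among the values used here.

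Postn (chromosome 3, 54361109 to 54391037, plus strand) encodes periostin, a matrix protein of fibroblasts that aids collagen crosslinking. It stood at 177 and 139 FPKM in sets 0 and 1 of the double, 176 and 141 FPKM in HA-NRG1 type III/+, 170 and 152 FPKM in Q215X/+, and 145 and 103 FPKM in WT. WT was the lowest genotype within each set, and the other 3 were close to each other. The log2 difference was 0.36 (SE 0.08) in the double against WT, 0.37 (SE 0.08) in HA-NRG1 type III/+ against WT and 0.40 (SE 0.08) in Q215X/+ against WT. None passed the test with the block (limma adjusted p = 0.0944, 0.10 and 0.424), and the 3 share the WT libraries. The interaction was −0.40 (SE 0.12) and did not pass either (adjusted p = 0.965).

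Sparc (chromosome 11, 55394500 to 55423183, minus strand) and Sparcl1 (chromosome 5, 104079111 to 104113733, minus strand), its relative, varied least of the 10 genes. The highest library of Sparc was 1.19 times the lowest, and for Thbs3 the ratio was 1.21. Sparc stood at 4839 and 5094 FPKM in sets 0 and 1 of the double, 4972 and 5418 FPKM in HA-NRG1 type III/+, 5136 and 5268 FPKM in Q215X/+, and 5427 and 5765 FPKM in WT. Within each set WT was the highest and the double the lowest. The log2 difference of the double against WT was −0.17 (SE 0.10) and that over both backgrounds −0.09 (SE 0.07), and neither passed the test (limma with the block, adjusted p = 0.448 and 0.522). Sparcl1 stood at 235 and 222 FPKM in the double, 237 and 241 FPKM in HA-NRG1 type III/+, 256 and 259 FPKM in Q215X/+, and 254 and 237 FPKM in WT. Its highest and lowest libraries differed by a ratio of 1.17. The double lay below Q215X/+ without overlap, as did 15.2% of tested genes. The log2 difference of −0.17 (SE 0.06) did not pass limma's test with the block (adjusted p = 0.250).

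As a list, the 10 genes had a median log2 difference with the transgene above that of all tested genes, as a description without a test. They were chosen with earlier results of these data known, so this is no separate support. Over both backgrounds their median log2 difference was 0.20 with 8 of 10 above 0, against a median of −0.01 and 46.7% above 0 over all tested genes. The median was 0.19 in the double against Q215X/+ and 0.21 in HA-NRG1 type III/+ against WT. It was 0.31 in the double against WT, which shares its WT libraries with the comparison of HA-NRG1 type III/+. In Q215X/+ against WT it was 0.06.

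The genes whose profiles over the 8 libraries lay closest to those of the called genes were found by the root mean square difference of centred log2(FPKM + 1) values. For Thbs2 they were Cdh3 (P-cadherin, 0.0910), Olfml2a (0.0920) and Sema3g (a secreted semaphorin, 0.105), where the spread of Thbs2 itself was 0.397. For Tnc they were Plxdc1 (0.115), Thbs2 (0.126) and the predicted gene Gm10754 (0.135). Thbs2 and Tnc were thus close neighbours among 12530 genes, with Tnc 5th in order of likeness to Thbs2. Spp1 had no close partner among the other 9 genes. Its nearest were Ms4a7 (0.171) and Cx3cr1 (0.175), both genes of tissue macrophages, and S100b (0.193), a calcium-binding protein of Schwann cells.

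Marker genes of the cell types in nerve moved with the transgene in part. The summed level of the 8 fibroblast markers was 6657 to 7279 FPKM with the transgene and 5659 to 6595 FPKM without, with ratios within sets of 1.04 to 1.24. Among them Lum rose over both backgrounds (log2 0.56, SE 0.05; limma with the block, adjusted p = 0.00462) and 0 passed the test as lower. The direction of the 8 differed by background. Relative to WT, 6 of the 8 lay above 0 in HA-NRG1 type III/+ nerves (median log2 0.23). Only 3 of the 8 did so in the double against Q215X/+ (median −0.08). The 7 macrophage markers summed to 139 to 164 FPKM with the transgene and 109 to 140 FPKM without, with ratios within sets of 1.08 to 1.5. Among them Cx3cr1 (log2 0.78, SE 0.07; adjusted p = 0.00531) and Ctss (0.56, SE 0.06; adjusted p = 0.00664) rose. The 10 myelinating Schwann cell markers summed to 53427 to 72297 FPKM with the transgene and 57896 to 78257 FPKM without. Their ratios within sets were 0.923 to 0.951. Over both backgrounds with the block 1 of them rose and 3 fell, where 3.42% of tested genes were higher and 3.69% lower. Cnp fell by 0.87 (SE 0.05; limma adjusted p = 0.00119 with the block and 0.0332 without), and S100b rose by 0.60 (SE 0.07; 0.00725 with the block). Ratios within sets were 0.861 to 1.18 for perineurium markers, 0.979 to 1.33 for endothelium and 0.941 to 1.16 for pericytes and smooth muscle. Of the 6 endothelium markers only Kdr was called over both backgrounds, as lower (log2 −0.25, SE 0.04; limma adjusted p = 0.0280 with the block and 0.143 without). Red blood cell markers summed to 49.1 to 178 FPKM with the transgene and 239 to 1279 FPKM without. Over both backgrounds with the block 4 of these 5 markers fell and 0 rose. Alas2 fell by 2.43 (SE 0.26; limma adjusted p = 0.00650 with the block and 0.0254 without). Ratios of the sums reached 1.57 for adipocyte markers (0.680 to 1.57) and 1.64 for skeletal muscle markers (0.0118 to 1.64), both highest in set 0 of the double over Q215X/+. The ratios of Tnc (1.66 to 2.33) and Spp1 (1.70 to 2.03) exceeded those of each of these sums, while those of Thbs2 (1.53 to 1.81) overlapped the adipocyte and muscle ranges. Single markers came closer, with ratios of 1.49 to 2.05 for Cx3cr1, 1.37 to 1.59 for Ctss and 1.39 to 1.58 for Lum. The part of cell composition in their values was not tested.

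**Figure D4:**
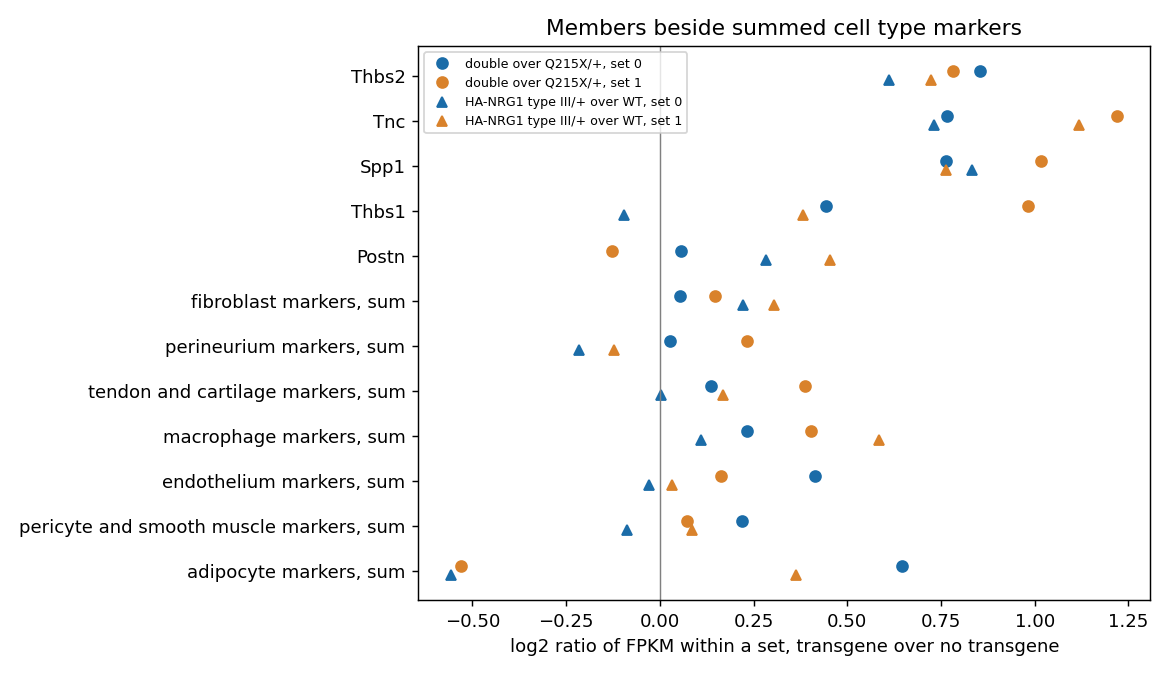
Log2 ratio of FPKM within a set, transgene over no transgene, with 1 point per set and background. Shown are 5 of the genes and the summed markers of 7 cell types. Skeletal muscle and red blood cell sums (ratios down to 0.0118 and 0.122) and the myelinating Schwann cell sum (0.923 to 0.951) are not drawn. The points of Tnc and Spp1 all lie to the right of those of every marker sum shown, those of Thbs2 overlap the highest adipocyte point (a ratio of 1.57), and those of Thbs1 and Postn overlap most sums.

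Other genes of the same biology were read from lists of matricellular proteins, receptors, TGF-beta signalling and matrix assembly. Of 25 other matricellular genes, 19 were tested. Over both backgrounds 3 rose and 2 fell with the block, with a list median of −0.02. Among all tested genes 3.42% were higher and 3.69% lower in this fit, and the counts of this and the next 3 lists, of 17 to 20 genes each, are read against these shares. The largest was a fall, in Smoc1, which encodes a calcium-binding protein of basement membranes related to Sparc. Smoc1 stood at 2.70 and 3.20 FPKM in sets 0 and 1 of the double, 2.08 and 2.71 FPKM in HA-NRG1 type III/+, 5.79 and 7.07 FPKM in Q215X/+, and 5.65 and 4.85 FPKM in WT. The libraries with the transgene lay below those without it and did not overlap, as for 5.2% of tested genes. The log2 difference of −0.90 passed in limma both with the block (SE 0.09; adjusted p = 0.00531) and without it (0.0276). With the block, it ended in 1 of 8 fits that left out 1 library (highest adjusted p = 0.0508).

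Fbln5, which encodes the elastic fibre protein fibulin 5, rose by 0.42 (SE 0.06) over both backgrounds with the block (adjusted p = 0.0158), and Wisp1, a CCN family gene, fell by 0.41 (SE 0.06; adjusted p = 0.0165). Their calls held in 4 and 3 of 8 fits that left out 1 library. With the sex term beside the block, Smoc1 (adjusted p = 0.0296) and Fbln5 (0.0337) still passed and Wisp1 (0.0733) did not. Smoc1 also fell (adjusted p = 0.0350; 1.06% of tested genes were lower) and Fbln5 also rose (0.0491) relative to WT in HA-NRG1 type III/+ nerves. Smoc1 alone of the list passed in the double against Q215X/+ (0.0321; 0.87% of tested genes were lower). These 3 calls, all with the block alone, held in 1, 2 and 2 of 8 fits that left out 1 library and ended with the sex term (0.207, 0.228 and 0.595).

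Of 23 receptor genes 20 were tested, and over both backgrounds 2 rose and 1 fell with the block. Vldlr, a lipoprotein receptor that can bind thrombospondin 1, fell by 0.28 (SE 0.05; adjusted p = 0.0303). Cd44, a receptor of osteopontin, rose by 0.39 (SE 0.08; adjusted p = 0.0390). Cacna2d1, the calcium channel subunit known as a thrombospondin receptor in brain, rose by 0.29 (SE 0.06; adjusted p = 0.0440). Their calls held in 1, 1 and 0 of 8 fits that left out 1 library, and all ended with the sex term (0.0959, 0.130 and 0.131). The 1 gene of 20 that fell is near the share of all tested genes.

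Of 18 genes of the TGF-beta pathway 17 were tested, and over both backgrounds 2 rose and 0 fell with the block. Ltbp1, which holds latent TGF-beta in the matrix, rose by 0.41 (SE 0.05; adjusted p = 0.00934), a call that held in 6 of 8 fits that left out 1 library, and Smad3 rose by 0.31 (SE 0.06; adjusted p = 0.0439), held in 1 of 8. With the sex term Ltbp1 passed (0.0478) and Smad3 did not (0.104). All 17 matrix assembly genes were tested, and 3 rose and 1 fell, where 3.42% of all tested genes were higher and 3.69% lower. The collagen prolyl hydroxylase gene P4ha3 rose by 0.45 (SE 0.05; adjusted p = 0.00900, held in 6 of 8) and P4ha1 fell by 0.35 (SE 0.06; adjusted p = 0.0226, held in 3 of 8). Lox, the collagen crosslinking enzyme, rose by 0.40 (SE 0.07; adjusted p = 0.0265, held in 2 of 8). With the sex term P4ha3 passed (0.0424), while P4ha1 (0.0786) and Lox (0.112) did not. Without the block, limma called only Smoc1 among these 4 lists over both backgrounds.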

How the data were processed

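Gene FPKM values were deposited by the authors as 1 table. The submitters' processing notes list TopHat2 2.0.9, Cufflinks 2.2.0 and mm10; the sources used here do not give the role of each, the annotation, strand handling or filters. Header names were read in order against the 8 values, past an unnamed empty field, and joined to genotypes by their stems. The transgene's stem was the only one left. No label ties the endings to replicates.

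Testing used limma 3.58.1 under R 4.3.3, with log2(FPKM + 1) as the response (4 means over 8 libraries, 4 residual degrees of freedom, eBayes trend, Benjamini-Hochberg 0.05 over the 12530 genes of mean at least 1 FPKM), checked on simulated data. An exact permutation test of 2 against 2 cannot go below 0.333 and was not used. Differences between sets correlated across genes in all 6 pairs of genotypes (0.118 to 0.304), so sets were treated as paired in a fit with 3 residual degrees of freedom (2 with sex, read from Xist and Ddx3y). The sex term rests on the libraries of HA-NRG1 type III/+, the only genotype with both sexes. Absolute depth is unknown; steps between values up to 0.05 FPKM gave relative depths of 0.727 to 1.09, and no counting interval is given.

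All 10 genes are named, with up to 3 called genes per list and the 3 nearest profiles of each called gene. Genes and lists were chosen with earlier results of these data known. Gene positions come from GENCODE M21 (GRCm38, the same as mm10). A check of the labels against a targeted gene is not reported here.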

Additional observations from a re-analysis of the deposited data

Results flagged for a closer look

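Sparcl1 was the one gene whose mutation effect ran in opposite directions on the 2 backgrounds in every set. The log2 difference of the double against HA-NRG1 type III/+ was −0.01 in set 0 and −0.12 in set 1, and that of Q215X/+ against WT was 0.02 and 0.13. The interaction was −0.14 (SE 0.09 with the block) and did not pass limma's test (adjusted p = 0.965 with the block). All 4 differences were small beside a level of 222 to 259 FPKM.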

How the results depend on the processing

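Without the replicate block, 0 of the 10 genes were called in any comparison under another pseudocount (0.1 FPKM), no filter, median ratio scaling, equal totals without short RNA, a term for sex or leaving out a library. With the replicate block, the numbers called were 2 in HA-NRG1 type III/+ against WT, 2 in the double against Q215X/+, 3 in the double against WT and 3 over both backgrounds. Alternatives that pair the block with another choice, other than sex and leaving out a library, were chosen after seeing the data. In the same order of comparisons they gave 3, 3, 3 and 3 with a pseudocount of 0.1 FPKM, 2, 2, 3 and 3 with median ratio scaling, 2, 3, 4 and 4 with equal totals, and 0, 0, 1 and 3 with no filter. Block and sex together gave 0, 0, 2 and 2. Leaving out 1 library with the block kept gave 0 to 3, 0 to 1, 0 to 3 and 2 to 4. Q215X/+ against WT, the double against HA-NRG1 type III/+ and the interaction gave 0 under every one of these. No called value changed sign, and 1774 of 1890 member values kept theirs. Scaling moved the median of all genes by under 0.1 log2 units. Comp and Tnc had the lowest levels, about 3 FPKM, and with unknown depth the reads behind them are not known. In Q215X/+ against WT with the block, Comp had the largest SE of the 10 genes (0.23). The SE of Tnc (0.09) was below those of Thbs1 (0.17) and Spp1 (0.16). Causes of these changes were not tested.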
